A study of Mus musculus with 6 samples.

Results

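The hearts of 6 mice aged 15 days were profiled by RNA sequencing, 3 of the genotype Nat10flox/flox (flox) and 3 labelled Nat10-CKO (CKO), in which Nat10 is described as deleted only in cardiomyocytes. Nat10 encodes an acetyltransferase of RNA, and the series is about its role in heart development. The sources used here do not give the Cre driver, the exons flanked by the recombination sites, the sex of the mice, or whether the flox controls carried Cre. The genes described are 10 of the insulin-like growth factor (IGF) system, found by their symbols among the 54532 genes of the deposited table: the ligand Igf1, the receptors Igf1r, Insr and Igf2r, and the binding proteins Igfbp2, Igfbp3, Igfbp4, Igfbp5, Igfbp6 and Igfbp7. All 10 symbols were found. Levels are in FPKM, fragment counts scaled for gene length and by a size factor for each library. With a filter at 1 FPKM, averaged over the 6 hearts, 9 of these genes were tested and Igfbp2 was left out.

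IGF1 is a secreted growth factor that acts through the tyrosine kinase receptor encoded by Igf1r, which sets off the PI3K-AKT and RAS-ERK kinase cascades. In the heart this system is known for its part in the growth and survival of muscle cells, and IGF1 is made both by the liver under growth hormone and locally by non-muscle cells. The insulin receptor, Insr, is a close relative that can pair with IGF1R in hybrid receptors, whereas Igf2r has no kinase and carries IGF2 to lysosomes. Binding proteins hold IGFs in the blood and the matrix, and either keep them from the receptor or release them to it.

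Depth was similar in the 6 hearts, with 15048038 to 16280061 counts per heart as recovered from the FPKM values. On the first principal component, CKO replicate 1 lay farthest from the flox hearts (50, against 14.9 and 23.9 for the other CKO hearts and −38.7 to −19.1 for flox). For the IGF genes whose change moves by over 1.5 times without that heart, the value without it is also given. The transcript of the targeted gene was not lower in the CKO hearts. Nat10 was at 3.87, 3.78 and 4.57 FPKM in flox replicates 1, 2 and 3, and at 3.69, 3.75 and 4.18 FPKM in the CKO replicates, a log2 change of −0.06 ± 0.12 (SE, n = 3; adjusted p by limma, 0.768) whose sign turned with TPM scaling (0.06), total-count scaling (0.05) or without flox replicate 3 (0.01). The directions below are therefore those of hearts labelled CKO. Cardiomyocyte markers were abundant in every heart, at a sum of 14300 to 24600 FPKM over 10 genes.

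Igf1 was the only 1 of the 9 tested IGF genes called at an adjusted p under 0.05, and it rose. That is 11.1% of the tested members, against 14.1% of all 12469 genes tested (6.93% higher and 7.19% lower), so the share was near the background. With TPM or total-count scaling, 69% and 66.4% of all called genes were higher, against 49.1% with the deposited scaling. The hearts of the groups did not overlap for 4 of the 9, namely Igf1, Igfbp7 and Igfbp4, which were higher in all CKO hearts, and Igfbp5, which was lower in all of them. Over all genes tested, 39.6% had groups that did not overlap, 19.7% higher and 19.9% lower in CKO. The median log2 change of the 9 genes was 0.39, against 0 for all genes tested.

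Sequences upstream of the transcription start are shown for the binding proteins whose groups did not overlap, to place them in the genome. They come from RefSeq (GRCm38.p6), which matched 9 of the 10 genes. Each runs 5′ to 3′ on the gene's strand and ends at the gene's first annotated exon or, for Igfbp7, a few bases before it. Capitals mark the TATA-box letters TATAAA, searched on both strands.
Igfbp4, chr11:99040994-99041243, plus strand: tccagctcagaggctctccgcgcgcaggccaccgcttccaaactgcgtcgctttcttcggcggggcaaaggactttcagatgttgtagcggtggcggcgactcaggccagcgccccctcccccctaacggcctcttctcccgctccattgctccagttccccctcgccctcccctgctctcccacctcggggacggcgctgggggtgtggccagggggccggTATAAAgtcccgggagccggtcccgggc
Igfbp5, chr1:72874885-72875115, minus strand: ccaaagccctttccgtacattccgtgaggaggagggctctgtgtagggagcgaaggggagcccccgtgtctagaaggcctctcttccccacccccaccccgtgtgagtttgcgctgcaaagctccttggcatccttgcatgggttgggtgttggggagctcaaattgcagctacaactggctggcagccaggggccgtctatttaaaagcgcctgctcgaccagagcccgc
Igfbp7, chr5:77408046-77408295, minus strand: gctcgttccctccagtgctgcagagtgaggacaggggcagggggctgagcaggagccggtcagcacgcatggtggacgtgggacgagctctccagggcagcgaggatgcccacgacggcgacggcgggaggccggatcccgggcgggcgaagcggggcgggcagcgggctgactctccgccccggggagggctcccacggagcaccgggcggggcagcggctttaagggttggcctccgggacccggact
The Igfbp4 window held TATAAA, as did 12.4% of the 32851 promoter windows of 250 bases, and the other windows shown did not. The G and C content was 74.0% upstream of Igfbp7, 69.2% upstream of Igfbp4 and 60.6% upstream of Igfbp5, against a median of 52.4% over all windows. Nothing about the factors that bind there can be read from these letters.

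Igf1 was at 4.13, 4.21 and 3.63 FPKM in flox replicates 1, 2 and 3, and at 6.08, 5.87 and 8.50 FPKM in CKO replicates 1, 2 and 3. Every CKO heart lay above every flox heart, and the highest was CKO replicate 3. The mean went from 3.99 ± 0.311 to 6.81 ± 1.46 FPKM (SD, n = 3), a log2 change of 0.63 ± 0.15 (SE) on the scale of log2(FPKM + 1), on which all log2 changes here are given. The limma adjusted p was 0.0342, and the exact two-sided permutation p was 0.1, the smallest that 3 hearts against 3 can give. The gene (ENSMUSG00000020053) spans 87858265 to 87937042 on chromosome 10 of GRCm38 and had 572 to 1332 counts per heart. The direction held without each heart in turn, but the call was lost without flox replicate 1 (adjusted p = 0.113), flox replicate 2 (0.0969), flox replicate 3 (0.0793) or CKO replicate 3 (0.0722), and with no filter on low values (0.0926).

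The summed levels of fibroblast and macrophage markers, cells known to make Igf1, were higher in the CKO hearts, although most single markers were not called. Fibroblast markers summed to 703 to 917 FPKM in flox and 1040 to 1350 FPKM in CKO hearts, with 4 of 10 called higher and 0 lower, against 6.93% of all genes called higher (median log2 change 0.47). Pdgfra and Dpt, markers of the same cells, had changes of −0.12 and −0.03. The fibroblast sum follows the abundant collagens, such as Col3a1, at a mean of 262 FPKM in flox and 395 FPKM in CKO hearts. Col1a1 was at means of 188 and 342 FPKM. Macrophage markers summed to 107 to 126 and 136 to 240 FPKM. Of these markers 1 of 10 was called higher and 0 lower (median 0.50), against 6.93% of all genes higher, and Csf1r was at 0.01. Set against these sums, Igf1 no longer separated the groups. It was 4.58 to 5.67 FPKM per 1000 FPKM of fibroblast markers in flox and 4.49 to 6.51 in CKO hearts, and 29.2 to 39.4 and 25.4 to 62.6 FPKM per 1000 FPKM of macrophage markers. In bulk tissue, more cells of a type and more RNA per cell cannot be told apart.

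**Figure D1:**
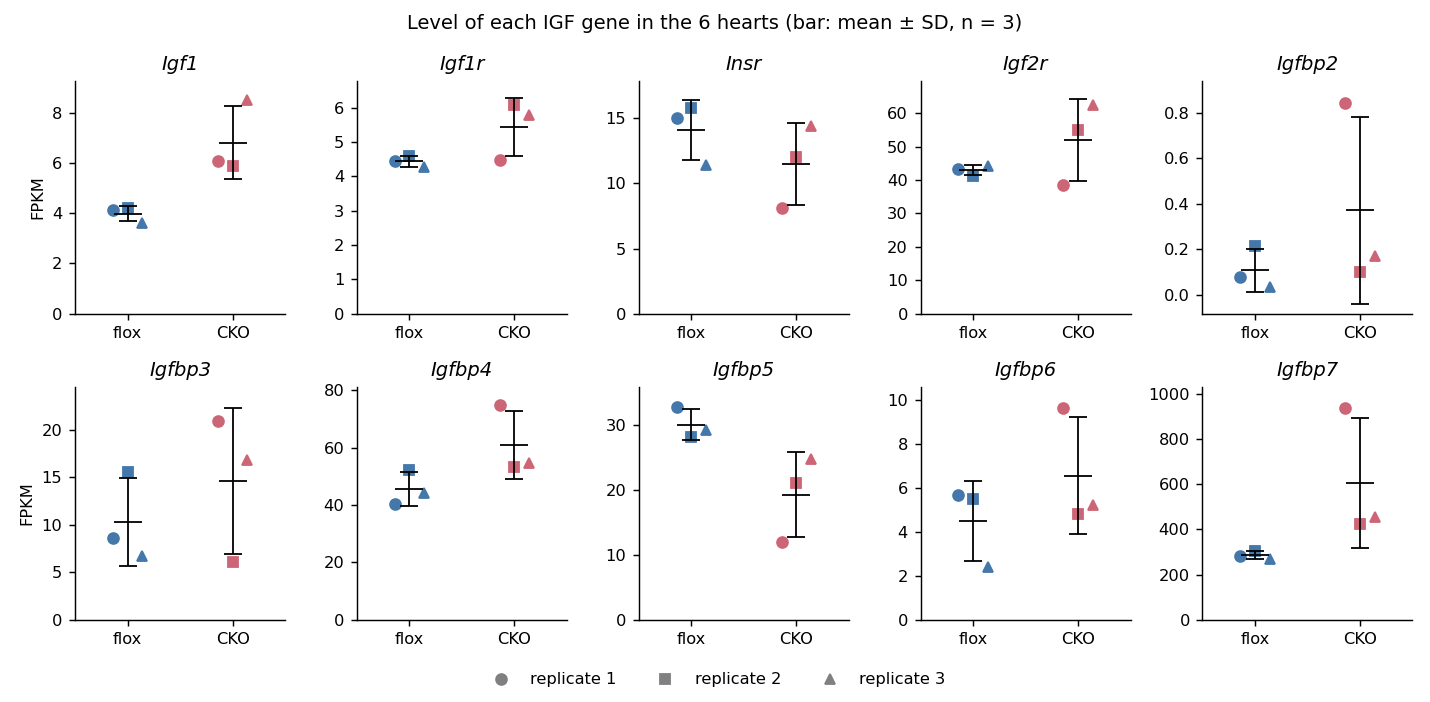
Level of each of the 10 IGF genes in FPKM (vertical axis, linear, a separate scale for each gene) in the 3 flox and 3 CKO hearts; symbols mark the replicate number, and black bars give the mean ± SD. The CKO hearts lie apart from the flox hearts for Igf1, Igfbp4, Igfbp5 and Igfbp7, and CKO replicate 1 (circle) is the highest or lowest of the 6 hearts for 8 of the 10 genes.

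Among the 3 receptor genes limma called 0 and voom called 0, and 0 passed 0.05 before adjustment. Igf1r, the IGF1 receptor (ENSMUSG00000005533, chromosome 7, 67952827 to 68233668), was at 4.45, 4.58 and 4.27 FPKM in flox and at 4.47, 6.06 and 5.79 FPKM in CKO hearts. CKO replicates 2 and 3 lay above the flox hearts and CKO replicate 1 lay among them. Its log2 change of 0.24 ± 0.13 (SE, n = 3; adjusted p by limma, 0.250) had a 95% interval from −0.07 to 0.54.

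Insr, the insulin receptor (ENSMUSG00000005534, chromosome 8, 3122061 to 3279617), was at 15.0, 15.8 and 11.4 FPKM in flox and at 8.14, 12.0 and 14.4 FPKM in CKO hearts, and the groups overlapped. Its log2 change was −0.29 ± 0.22 (limma adjusted p = 0.390, 95% interval −0.79 to 0.21). Without CKO replicate 1, the lowest heart, it was −0.08. In flox hearts the Insr transcript was 3.18 times as abundant per length as Igf1r.

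The balance of these receptors differed between the groups in every heart. Igf1r divided by Insr was 0.297, 0.289 and 0.373 in flox replicates 1, 2 and 3, and 0.550, 0.503 and 0.401 in CKO replicates 1, 2 and 3. The lowest CKO heart was above the highest flox heart. Such a ratio is taken within a heart, so the scaling between libraries does not enter it. It was formed after the values were seen and is given as a description. Cardiomyocyte markers summed to 19600 to 24600 FPKM in flox and 14300 to 15700 FPKM in CKO hearts. Of these markers 5 of 10 were called lower and 0 higher (median log2 change −0.62), against 7.19% of all genes lower. The sum follows the most abundant markers, such as Actc1, at a mean of 7720 FPKM in flox and 5800 FPKM in CKO hearts. Myh6 was at means of 5380 and 2660 FPKM. Insr per 1000 FPKM of cardiomyocyte markers was 0.585 to 0.665 in flox and 0.519 to 1.01 in CKO hearts, and Igf1r was 0.181 to 0.218 and 0.285 to 0.421.

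Igf2r, the receptor that clears IGF2 (ENSMUSG00000023830, chromosome 17, 12682406 to 12769664), was the most abundant receptor transcript, at 43.2, 41.3 and 44.3 FPKM in flox and 38.4, 55.1 and 62.5 FPKM in CKO hearts. CKO replicate 1 held the lowest value of the 6 hearts and the other CKO hearts the highest. The log2 change was 0.24 ± 0.19 (limma adjusted p = 0.409). Without CKO replicate 1 it was 0.44 ± 0.10 and was called (adjusted p = 0.0475). The antisense gene Airn lies across part of the Igf2r gene, although its annotated exons share no base with those of Igf2r.

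Igfbp7 was the most abundant of the 10 transcripts in each group. It encodes a secreted protein of vessel walls that binds IGFs only weakly (ENSMUSG00000036256, chromosome 5, 77349240 to 77408041). Its level was 282, 305 and 271 FPKM in flox and 937, 424 and 454 FPKM in CKO hearts. All CKO hearts lay above all flox hearts, and CKO replicate 1 stood far above the rest. The mean was 286 ± 17.2 FPKM in flox and 605 ± 288 FPKM in CKO hearts (SD, n = 3), with a log2 change of 0.98 ± 0.30 (SE) that missed the threshold (limma adjusted p = 0.0665, exact permutation p = 0.1). Its 95% interval ran from 0.29 to 1.68.

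Without CKO replicate 1, Igfbp7 showed a smaller and tighter difference. The log2 change was then 0.62 ± 0.11, and the gene was called (adjusted p = 0.0265). In that comparison Igf1 and Igf2r were also called, so that 3 of the 9 genes passed, against 11.3% of all genes tested. Igfbp7 was also called with TPM (log2 change 1.13, adjusted p = 0.0270), total-count scaling (1.12, 0.0402), quantile normalization (1.12, 0.0251) and voom on recovered counts (0.99, 0.0460). Under TPM and total-count scaling, all genes tested shifted upward at the median, by 0.13 and 0.11. An exon of Polr2b on the other strand shares 85 of the 1209 exon bases of Igfbp7, or 7.03%.

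Markers of vessel cells moved in different ways. Over all genes tested, 6.93% were called higher and 7.19% lower. Endothelial markers summed to 426 to 460 FPKM in flox and 325 to 404 FPKM in CKO hearts, with 1 of 10, Vwf, called higher (0.64) and 0 lower (median log2 change −0.24). Smooth muscle and pericyte markers summed to 594 to 739 and 461 to 530 FPKM, with 0 of 9 called higher and 1, Abcc9, lower (median −0.16). These sums follow the abundant markers, such as Acta2, at a mean of 281 FPKM in flox and 166 FPKM in CKO hearts. Other markers of the list did not fall. Cnn1 was 5.26-fold higher in CKO hearts by its mean, with an adjusted p by limma of 0.0933. Tagln, too low to be tested, was 2.58-fold higher by its mean, with groups that did not overlap, and Myh11 had a log2 change of −0.03. The part of vessel cells in the Igfbp7 result was not tested. Per 1000 FPKM of endothelial markers, Igfbp7 was at 589 to 715 FPKM in flox and at 1050 to 2880 FPKM in CKO hearts. Per 1000 FPKM of smooth muscle and pericyte markers it was at 381 to 456 and 857 to 1950 FPKM. Igfbp7 was higher and both sums were lower in every CKO heart, so the groups could not overlap on either measure. These ratios are given as a description.

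**Figure D2:**
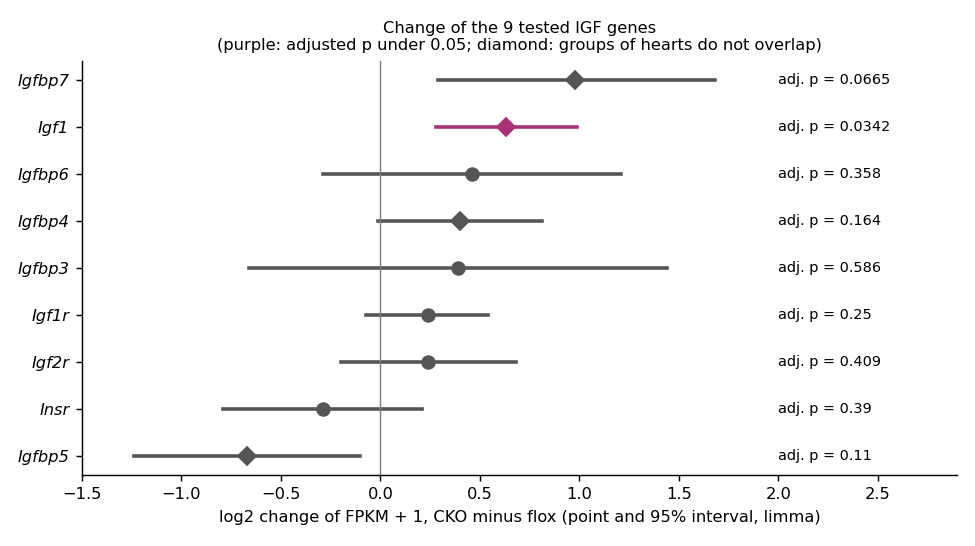
Log2 change of FPKM + 1 (horizontal axis, CKO minus flox) for the 9 tested IGF genes, with the 95% interval of the limma fit and the adjusted p at the right; diamonds mark genes whose groups of hearts do not overlap. Igf1, in purple, is the only gene with an adjusted p under 0.05, and the intervals of Igfbp7 and Igfbp5 also leave out 0.

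Igfbp5, a matrix-bound binding protein (ENSMUSG00000026185, chromosome 1, 72857932 to 72874884), was the member with the largest lower value in CKO hearts. It was at 32.8, 28.2 and 29.3 FPKM in flox and at 12.0, 21.1 and 24.8 FPKM in CKO hearts. The groups did not overlap, and CKO replicate 1 was the lowest. The log2 change was −0.67 ± 0.25 (limma adjusted p = 0.110, unadjusted p = 0.0278, exact permutation p = 0.1), with a 95% interval from −1.24 to −0.10. It was called under 0 of the 17 alternatives, with changes from −0.87 to −0.38, and the smallest, −0.38, was that without CKO replicate 1 (adjusted p = 0.0984). Per 1000 FPKM of fibroblast markers Igfbp5 was at 30.7 to 45.1 FPKM in flox and 8.91 to 20.4 FPKM in CKO hearts. The fibroblast sum was higher in every CKO heart, so this ratio could not overlap between the groups. Per 1000 FPKM of smooth muscle and pericyte markers the groups overlapped (41.2 to 49.4 and 25.1 to 46.8).

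Igfbp4, which holds IGFs away from their receptor until the protease PAPP-A cuts it (ENSMUSG00000017493, chromosome 11, 99041244 to 99054392), was at 40.3, 52.2 and 44.3 FPKM in flox and at 74.8, 53.3 and 54.8 FPKM in CKO hearts. The groups did not overlap, but flox replicate 2 and CKO replicate 2 were close together. The log2 change was 0.40 ± 0.18 (limma adjusted p = 0.164, 95% interval −0.01 to 0.81), and no alternative called it. Without CKO replicate 1 it was 0.25 (adjusted p = 0.274). Per 1000 FPKM of fibroblast markers the order turned, with 55.3 to 63.0 FPKM in flox and 42.0 to 55.3 FPKM in CKO hearts, ranges that meet at 55.3. That sum follows the abundant collagen markers, and not all fibroblast markers changed with them.

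Igfbp3, the main IGF carrier of the blood (ENSMUSG00000020427, chromosome 11, 7206086 to 7213923), differed widely among the hearts of each group. It was at 8.59, 15.6 and 6.68 FPKM in flox and at 21, 6.05 and 16.8 FPKM in CKO hearts, so that both the highest and the lowest of the 6 values were CKO hearts. Its log2 change of 0.39 ± 0.45 (limma adjusted p = 0.586) had the widest interval of the 9 genes, from −0.66 to 1.44, and was 0.07 without CKO replicate 1 (adjusted p = 0.943). The 3 hearts with the highest Igfbp3 were also those with the most Myl7, Myl4 and Sln, which are atrial muscle transcripts. Nr2f2 and Stard10, of the same list, did not follow that order. The same hearts were the 3 highest for Igfbp2 too. Summed atrial markers were at 105 FPKM in flox replicate 2, 48.2 in CKO replicate 1 and 38.4 in CKO replicate 3, and at 7.80 to 8.68 FPKM in the other hearts. Their part in the Igfbp3 values was not tested.

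Igfbp6, which prefers IGF2 over IGF1 (ENSMUSG00000023046, chromosome 15, 102144362 to 102149511), was at 5.66, 5.49 and 2.42 FPKM in flox and at 9.63, 4.82 and 5.23 FPKM in CKO hearts. Only CKO replicate 1 lay above the flox hearts. The log2 change was 0.46 ± 0.32 (limma adjusted p = 0.358, 95% interval −0.29 to 1.21), on 45 to 179 counts per heart, and was 0.19 without CKO replicate 1 (adjusted p = 0.729). Igfbp2, a binding protein of fetal tissues (ENSMUSG00000039323, chromosome 1, 72824503 to 72852474), was near the limit of detection, with 1 to 26 counts per heart. Its level was 0.0774, 0.213 and 0.0324 FPKM in flox and 0.842, 0.0988 and 0.171 FPKM in CKO hearts, where CKO replicate 1 alone stood above the flox range. Without a filter on low values its log2 change was 0.27 ± 0.20 (limma adjusted p = 0.560).

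Together the 6 binding protein transcripts summed to 353 to 406 FPKM in flox and to 510 to 1060 FPKM in CKO hearts, and Igfbp7 made up most of each sum. Its share was 76.3%, 75% and 76.6% in flox replicates 1, 2 and 3, and 88.8%, 83.3% and 81.7% in the CKO replicates. The share of Igfbp5 was 8.88%, 6.94% and 8.29% in flox and 1.14%, 4.13% and 4.46% in CKO hearts. Neither share overlapped between the groups, and both are independent of the scaling between hearts. They are parts of the same sum, so a larger share of Igfbp7 leaves less for the others. The share of Igfbp4 was also lower in every CKO heart, at 7.09%, 10.5% and 9.86%, against 10.9%, 12.9% and 12.5% in flox. The FPKM of Igfbp4 was nevertheless higher in every CKO heart. Without Igfbp7 the other 5 genes summed to 82.8 to 102 FPKM in flox and 85.4 to 118 FPKM in CKO hearts, and the groups overlapped. Binding protein transcripts per Igf1 transcript overlapped too, at 89.5, 96.6 and 97.3 in flox and at 174, 86.9 and 65.4 in CKO hearts. The overlap came from CKO replicate 1, at 174, since the other CKO hearts lay below every flox heart.

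**Figure D3:**
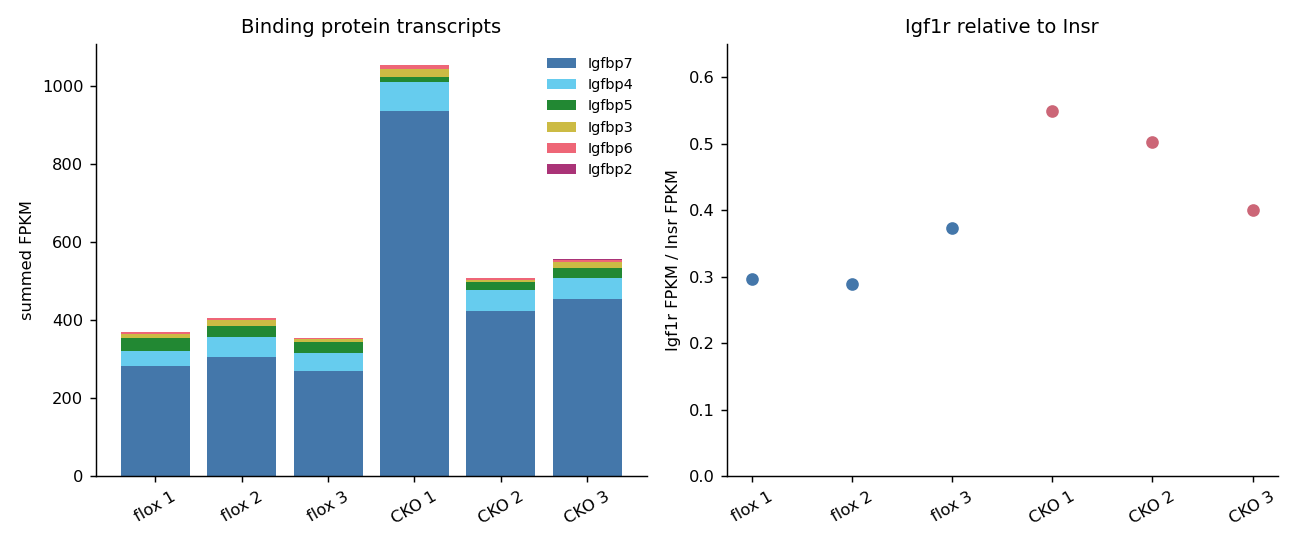
Left, FPKM of the 6 binding protein genes stacked for each heart (vertical axis, summed FPKM); right, Igf1r FPKM divided by Insr FPKM in each heart, flox in blue and CKO in red. Igfbp7 makes up 75% to 76.6% of the sum in flox and 81.7% to 88.8% in CKO hearts, and the ratio is 0.289 to 0.373 in flox and 0.401 to 0.550 in CKO hearts.

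The order of the levels per gene length was similar in the groups. In flox hearts it ran Igfbp7, Igfbp4, Igf2r, Igfbp5, Insr, Igfbp3, Igfbp6, Igf1r, Igf1 and Igfbp2. Neighbours whose ranges overlapped were Igfbp4 and Igf2r, Insr and Igfbp3, and Igfbp6 and Igf1r. In CKO hearts Igfbp3 stood above Insr and Igf1 above Igfbp6 and Igf1r, but all neighbours from Igfbp5 down to Igf1r had overlapping ranges. Igfbp7 ranked 70 among the 12469 tested genes by mean FPKM and Igf1r, the lowest tested member by mean, ranked 7030.

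CKO replicate 1 took the highest or the lowest place among the 6 hearts for 8 of the 10 genes. It was highest for Igfbp2, Igfbp3, Igfbp4, Igfbp6 and Igfbp7 and lowest for Igf2r, Insr and Igfbp5. Among the 9 tested genes it did so for 7, and among all genes tested for 62.4%, so this heart stood out across the transcriptome. Flox replicate 3 was at an extreme for 4 of the 9, and for 23.6% of all genes tested, fewer than flox replicate 1 (41.5%).

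By the shape of their profile over the 6 hearts, the genes nearest to Igfbp7 were Eif6, a factor of large ribosomal subunit assembly, and Capg, an actin-capping protein. Their root-mean-square distances from it, after each gene was centred on its own mean, were 0.0914 and 0.0998 on the log2 scale, against a spread of 0.614 for Igfbp7 itself. Nearest to Igfbp5, at a spread of 0.453, were Aak1 (0.0608) and Tmem131 (0.0626). Nearest to Igf1, at a spread of 0.354, were Tulp4 (0.0716) and Ercc5, a DNA repair nuclease (0.0828). These are the closest of the tested genes outside the 10 IGF genes, over 6 hearts only. Predicted genes (Gm number or Rik) and genes without a symbol were left out of the search.

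Around these 10 genes, 86 of 95 listed genes of the IGF system and its signalling pathway were tested, and 6 were higher, 8 lower and 72 not called. That is 16.3%, against 14.1% of all genes, and the median log2 change was −0.02. Of the other ligands and binding proteins, limma called 0 of 5 tested genes, voom called 0, and 1, Igf2, passed 0.05 before adjustment. Igf2, the fetal IGF (chosen after its values were seen), was at 2.30, 2.56 and 2.37 FPKM in flox and 0.418, 1.58 and 1.48 FPKM in CKO hearts, which did not overlap (log2 change −0.71 ± 0.24, limma adjusted p = 0.0863, called under none of 16 alternatives, and −0.43 without CKO replicate 1). The most abundant member of that list, Kazald1, had a log2 change of 0.31 ± 0.23 (limma adjusted p = 0.384). Igfbp1 and Ins1 had 0 counts in all 6 hearts, which allows up to 3 counts per library.

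Proteases that cut binding proteins and their inhibitors had 0 of 7 called by limma, 0 by voom, and 0 passed 0.05 before adjustment. The most abundant, the lysosomal protease Ctsd, averaged 142 ± 16.7 FPKM over flox and 181 ± 38.7 FPKM over CKO hearts (log2 change 0.33 ± 0.19, limma adjusted p = 0.255). Pappa, the protease of Igfbp4, was below the filter and was not tested by limma, and it is named outside the rule given below. Pappa2, of the same list and also below the filter, was 3.69-fold higher by its mean. It had 1 to 26 counts per heart and groups that overlapped. Pappa had 12, 18 and 12 counts in flox and 41, 60 and 57 counts in CKO hearts, a mean FPKM 3.52-fold higher in CKO with groups that did not overlap (exact permutation p = 0.1, the smallest possible).

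In the growth hormone axis, which drives Igf1 in the liver, 3 of 8 tested genes were called, 1 higher and 2 lower (37.5%, against 14.1% of all genes). Ghr, the growth hormone receptor, was at 18.4, 16.6 and 11.8 FPKM in flox and at 7.07, 8.21 and 8.26 FPKM in CKO hearts, with every CKO heart below every flox heart (log2 change −0.89 ± 0.17, limma adjusted p = 0.0194). Stat5a, a transcription factor downstream of it, fell from 5.56 ± 0.988 to 2.78 ± 0.580 FPKM (SD, n = 3; −0.80 ± 0.17, limma adjusted p = 0.0235), and 72 of its 7133 exon bases overlap Stat3 on the other strand. Socs2, a feedback inhibitor of the receptor, rose from a mean of 6.51 ± 1.10 to 9.75 ± 0.932 FPKM (0.52 ± 0.14, limma adjusted p = 0.0496). Ghr and Stat5a were not called without flox replicate 1, flox replicate 2 or CKO replicate 3 (adjusted p up to 0.0799 and 0.0998), and Socs2 was not called without any 1 of the 6 hearts (up to 0.174). Per 1000 FPKM of cardiomyocyte markers, Ghr was still lower in every CKO heart, at 0.451 to 0.577 against 0.601 to 0.748 FPKM.

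Among the receptor adaptors and phosphatases, 3 of 17 tested genes were higher and 2 lower (29.4%, against 14.1% of all genes). Grb14, an adaptor that inhibits the insulin receptor kinase (chromosome 2, 64912476 to 65024987), was at 21.5, 18.3 and 14.1 FPKM in flox and at 5.13, 6.76 and 6.47 FPKM in CKO hearts. The lowest flox heart was more than double the highest CKO heart. It fell by 1.40 ± 0.18 on the log2 scale (limma adjusted p = 0.00602), and its call held under all 17 alternatives, with adjusted p of at most 0.0362. Per 1000 FPKM of cardiomyocyte markers it was at 0.719 to 0.871 FPKM in flox and 0.327 to 0.470 FPKM in CKO hearts.

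Enpp1, an ectoenzyme that can also bind and inhibit the insulin receptor, rose from a mean of 1.14 ± 0.254 to 3.74 ± 1.02 FPKM (1.13 ± 0.19 on the log2 scale, limma adjusted p = 0.0126), and was not called without flox replicate 2 (0.0539). Ptprf, a receptor-type phosphatase that can act on the insulin receptor, rose from a mean of 4.03 ± 0.322 to one of 8.73 ± 1.57 FPKM (0.94 ± 0.15, limma adjusted p = 0.0101), and was not called without flox replicate 1 (0.0512). The other called genes of this list, named after their values were seen, were Grb2, the adaptor that links receptors to RAS (−0.67 ± 0.11, limma adjusted p = 0.0129), and the scaffold Rack1 (0.89 ± 0.19, 0.0238). Both were not called without flox replicate 1 or flox replicate 2 (adjusted p up to 0.0766 and 0.105). Rack1 is also a ribosomal protein of the small subunit.

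In the PI3K, AKT, FOXO and mTOR pathway 4 of 32 tested genes were lower and 0 higher. That is 12.5%, near the 14.1% of all genes called, of which 7.19% of all genes were lower. The called genes of this pathway were Pik3ip1, an inhibitor of PI3K (−0.88 ± 0.22, limma adjusted p = 0.0373), Foxo4, a transcription factor held out of the nucleus by AKT (−0.76 ± 0.19, 0.0409), Phlpp1, a phosphatase of AKT (−0.72 ± 0.19, 0.0469), and Inppl1, a lipid phosphatase that opposes PI3K (−0.64 ± 0.16, 0.0351, named after its value was seen). Each of these calls was lost on leaving out any 1 of 4 hearts, namely flox replicates 1 and 2 and CKO replicate 3, with flox replicate 3 for Phlpp1 and Inppl1 and CKO replicate 1 for Pik3ip1 and Foxo4 (adjusted p up to 0.162). Phlpp1 and Inppl1 were also not called with TPM (0.0847 and 0.0692) or total-count scaling (0.0682 and 0.0557), which leaves 2 of the 4. In the RAS and ERK branch 2 of 17 rose and 0 fell (11.8%, near the 14.1% of all genes called, with 6.93% of all genes higher). They were Spry1, a feedback inhibitor of receptor kinases (0.92 ± 0.23, limma adjusted p = 0.0396), and Hras (0.68 ± 0.18, 0.0471), and each lost its call without any of 5 hearts (adjusted p up to 0.156), Spry1 keeping its call, of these fits, without CKO replicate 2 and Hras without CKO replicate 1. Of the pathway genes called above, Grb14, Ptprf and Grb2 were still called with no filter on low values. The other called genes were not (limma adjusted p from 0.0521 for Enpp1 to 0.124 for Phlpp1).

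**Figure D4:**
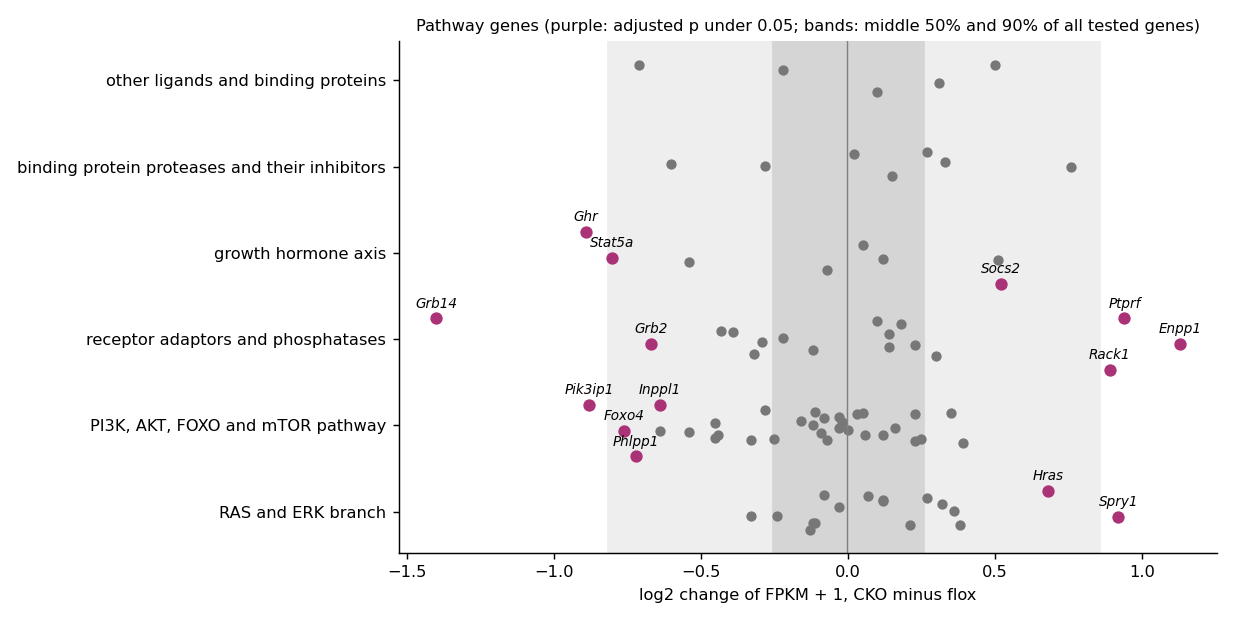
Log2 change of FPKM + 1 (horizontal axis, CKO minus flox) of the 86 tested pathway genes, grouped by list; each point is a gene, purple points have an adjusted p under 0.05, and the grey bands hold the middle 50% and 90% of all 12469 tested genes. Grb14 lies farthest to the left, at −1.40, and Enpp1 farthest to the right, at 1.13.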

How the data were processed

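The authors deposited FPKM values for 3 flox and 3 CKO hearts in 1 table with gene positions and lengths. Per the series text and the submitters' processing notes, reads were aligned to GRCm38 (mm10) with HISAT2 2.0.5 and counted with featureCounts 1.5.0-p3. The submitters' processing notes also list DESeq2 1.20.0 and CASAVA. No source used here says whether counting used strand. FPKM times length gave whole counts for 100% of values above 0 (tolerance 0.01), and the deposited scaling equalled median-of-ratios size factors (0.893 to 1.07). Replicates are independent biological samples, per the labels.

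From these, log2(FPKM + 1) of genes with a mean of at least 1 FPKM was fitted with limma 3.58.1 (R 4.3.3), with a mean-variance trend, genotype as its only term, and Benjamini-Hochberg adjustment over 12469 genes. The fit was tested on simulated data. The change is understated for low genes. Exact permutation tests over 3 hearts against 3 cannot give p below 0.1. Exon overlaps come from GENCODE M21, which held 99.8% of the gene identifiers.

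The 10 genes, lists and alternatives were chosen with earlier results of these data known. Named were all 10 genes, Nat10, from each pathway list the 3 called genes with the largest change (or the most abundant gene, where none was called), and the nearest profiles to the 3 IGF genes with the largest change. Grb2, Rack1, Inppl1, Igf2 and Irs2, and the ratios within hearts, were chosen after the values were seen. Pappa, Pappa2, Irs1, Igfbp1, Ins1 and the single cell type markers named also lie outside this rule. Epicardial markers (by limma and voom, 0 of 2 tested called and 0 at an unadjusted p under 0.05, 2.85 to 7.44 FPKM summed in flox and 5.49 to 8.42 in CKO hearts) and atrial markers (likewise 0 of 5, 7.80 to 105 and 7.94 to 48.2 FPKM) overlapped between groups.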

Additional observations from a re-analysis of the deposited data

How the results depend on the processing

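The log2 changes of the 9 tested IGF genes kept their direction under the 17 alternatives (16 for Igf1r, which has a mean under 5 FPKM). The count of IGF genes called was 1, and it was 0 without a filter on low values, 2 with TPM, total-count scaling, quantile normalization or voom on recovered counts (each adding Igfbp7), and between 0 and 3 without 1 heart. The 1761 genes called became 641 without a filter and between 359 and 1788 without 1 heart, the lowest without flox replicate 1 (472 without flox replicate 2, 744 without CKO replicate 3). The 26 called pathway and marker genes became 4 without a filter and between 2 and 25 without 1 heart. With TPM 69% of called genes were higher and with total-count scaling 66.4%, against 49.1%. Reversed directions were those of Nat10 (0.06 with TPM, 0.05 with total-count scaling, and −0.10 to 0.01 without 1 heart, reversed without flox replicate 3) and Irs2 (−1.14 to 0.45 without 1 heart, reversed without flox replicate 1); the causes were not tested. With the replicate number as a replicate block, 541 genes, 0 IGF genes and 4 pathway and marker genes were called (Igf1 adjusted p = 0.106). Same-numbered hearts deviated at correlations of −0.28, −0.14 and −0.19, and none correlated best with its own number. These are deviations from means of 3 hearts, so they cannot decide whether the numbers pair the hearts. Igfbp2, with 1 to 26 counts per heart, is limited by depth.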

Other observations

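Irs2, the insulin receptor substrate that links the receptors to PI3K, varied more within a genotype than any other tested adaptor gene. It was at 51.9, 13.3 and 4.8 FPKM in flox replicates 1, 2 and 3, and at 6.41, 8.31 and 27.0 FPKM in CKO replicates 1, 2 and 3. Its highest flox heart was 10.8 times its lowest, and its spread among the flox hearts (an SD of 1.60 on the log2 scale) was above that of 99.9% of tested genes. The log2 change between the genotypes was −0.39 ± 0.81 (SE, n = 3; adjusted p by limma, 0.767). Irs1, its relative, spread 1.69-fold among flox and 3.97-fold among CKO hearts.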
